A study of Mus musculus with 4 samples.

Results

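A set of 10 genes of cyclic nucleotide signalling was followed in RNA from sorted mouse lung smooth muscle cells (SMCs) with *Tet3* inactivated, and in control SMCs. The members were chosen by name, with earlier results of these data known. They were the natriuretic peptide receptors *Npr1* and *Npr3*, the cGMP-dependent kinase *Prkg1* and the phosphodiesterases *Pde5a*, *Pde3a*, *Pde1a*, *Pde1c*, *Pde4b*, *Pde4d* and *Pde10a*. All 10 were found among the 21462 genes of the table, and all 10 passed the minimum mean of 10 normalized counts that 16659 genes passed.

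Cyclic AMP (cAMP) and cyclic GMP (cGMP) are the second messengers that relax smooth muscle. cGMP is made by natriuretic peptide receptors at the cell surface and by nitric oxide-sensitive guanylyl cyclase in the cytosol, and it acts mainly through cGMP-dependent protein kinase, while cAMP is made by adenylyl cyclases downstream of receptors such as the β2-adrenoceptor and acts mainly through protein kinase A. Phosphodiesterases (PDEs) end both signals by hydrolysis, some of them cleaving only cAMP, some only cGMP and some both. PDE inhibitors are in clinical use as relaxants of the airways and of the pulmonary vasculature.

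Each mouse was on a C57BL/6 background. Mutant mice carried *Tet3* fl/fl, the tamoxifen-inducible α-SMA-ERT2-Cre transgene, which is driven by the smooth muscle α-actin promoter, and a ROSA26 tdTomato reporter, and are labelled Mut. The control mice, labelled WT, lacked the floxed allele but carried the Cre transgene and/or the reporter, by the study's wording for all its experiments. Sorting on tdTomato requires the reporter in both groups. By the study's methods, tamoxifen was given daily from an age of 8 weeks, CD45+ and Ter-119+ cells were depleted with beads, and tdTomato+ cells were then sorted. There were 2 libraries per group, from independent animals by the study's account, although the labels do not tie libraries to animals. All values are normalized counts as scaled between samples and rounded by the authors, and the reads assigned to genes are estimated at 6.32 M in the shallowest library and 7.56 M in the deepest. Fold changes compare mutants with controls on the log2(value + 1) scale, are positive where mutants were higher, and are given ± their standard error.

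Wherever 2 values are given for a group, replicate 1 comes first. *Tet3* itself stood at 1847 and 1926 normalized counts in the controls against 1534 and 1444 in the mutants, with a log2 fold change of -0.34 ± 0.10 (limma adjusted p = 0.681). A value per gene also counts reads outside the floxed part, so it checks the deletion only in part. Control replicate 2 stood apart from the other libraries, with 1003 genes more than 2-fold away from all 3 others, against 120 to 248 for each of the others. It held 2252 normalized counts from 4 Y chromosome genes, where the other libraries held 0 to 3, and 2 normalized counts of *Xist*, where they held 5214 to 6781. Sex therefore could not be separated from the library. The labelled cell type was checked with 10 smooth muscle markers, whose sum was 5108 and 6747 normalized counts in the controls against 7952 and 7612 in the mutants. For markers such as *Acta2* and *Cnn1*, the study reports more reads without *Tet3* but less full-length mRNA. It also reports lower α-SMA and MYH11 protein, so these sums of reads do not measure full-length mRNA or protein. All 10 smooth muscle markers had a fold change above 0, with a median of 0.52 (0.29 without control replicate 1 and 0.85 without control replicate 2, each with 9 of 10 above 0), and 7 of 8 pericyte markers did, with a median of 0.46. Markers of fibroblasts, endothelium and alveolar type 2 cells were also present at medians of 327, 254 and 618 normalized counts per kb of exon, against 175 for the smooth muscle markers, and the summed alveolar type 2 markers were 14928 and 22359 in the controls against 10571 and 13545 in the mutants, with 8 of 8 below 0 and a median of -0.60, which was -0.32 with 7 of 8 below 0 without control replicate 2. Macrophage markers were present at a median of 278 normalized counts per kb of exon and summed to 7817 and 7056 in the controls against 8399 and 9464 in the mutants. Of these markers 9 of 10 were above 0, with a median of 0.41, which was 0.25 with 6 of 10 above 0 without control replicate 2. The part of these cell types in the results below was not tested, and in bulk RNA fewer cells of a type cannot be told apart from less RNA per cell.

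None of the 10 genes was called at a limma adjusted p below 0.05, nor was any of the 16659 genes tested (0%). At an unadjusted p below 0.05, 3 of the 10 passed, 2 of them higher in mutants (*Pde1a* and *Pde3a*) and 1 lower (*Pde4d*), where 6.68% of all genes tested passed, 3.83% as higher and 2.85% as lower. The control and mutant libraries did not overlap for 9 of the 10 genes, against 39.0% of all genes tested. Of these 9 genes, 6 were higher in both mutants (19.6% of all genes) and 3 were lower (19.5%). Since the members were chosen with earlier results of these data known, these shares are a description and were not tested. The median log2 fold change of the 10 genes was 0.28, beside -0.01 for all genes tested. The PDEs lay on both sides of 0: those that hydrolyse cGMP or both nucleotides were above it, and both cAMP-specific members, *Pde4b* and *Pde4d*, were below it.

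**Figure D1:**
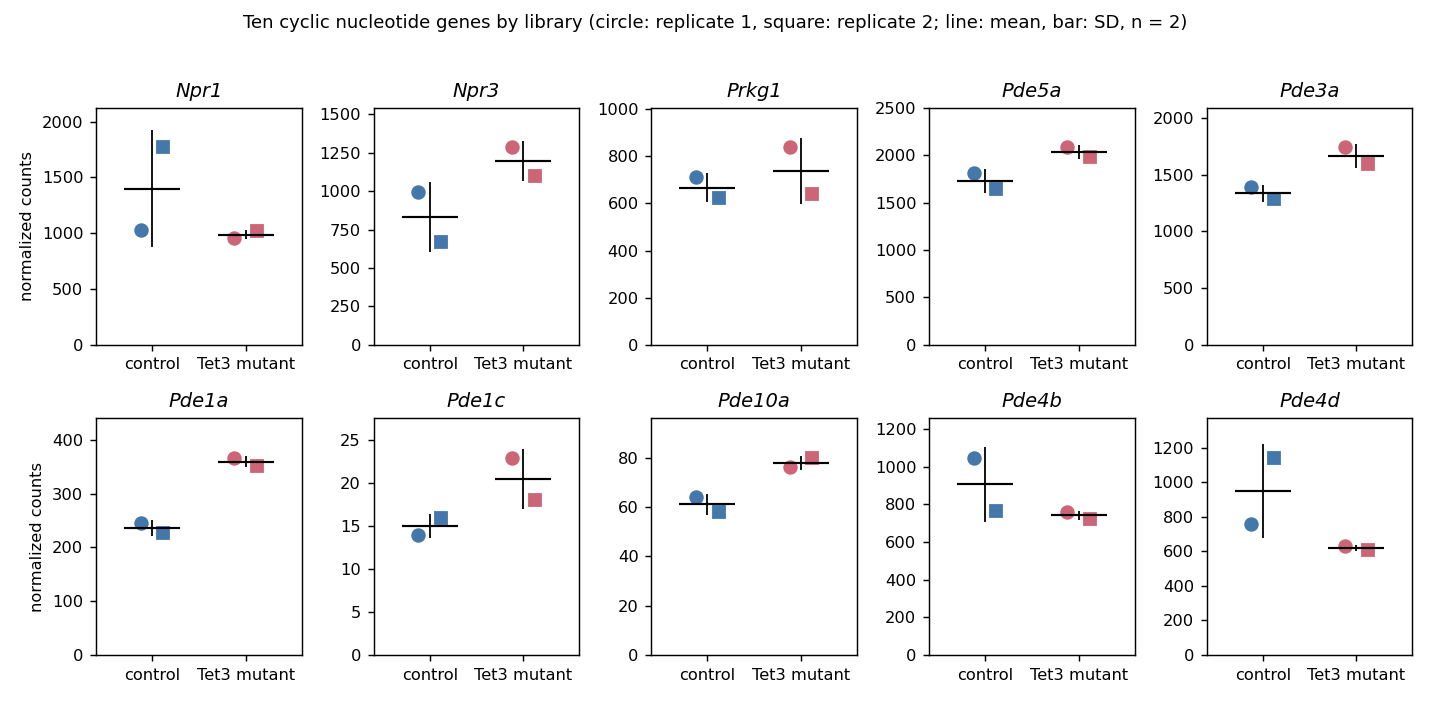
Normalized counts of the 10 genes in each library. The vertical axis of each panel starts at 0, the horizontal line is the group mean and the bar the SD of 2 libraries. *Pde1a* shows the clearest gap between groups, while *Npr1* and *Pde4d* show controls that lie far from each other and mutants that lie close together.

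The natriuretic peptide receptors are described first. *Npr1* (ENSMUSG00000027931, chromosome 3, 90450591 to 90465866, minus strand, GRCm38) encodes the guanylyl cyclase receptor for atrial and brain natriuretic peptides. It had 1029 and 1771 normalized counts in the controls against 957 and 1019 in the mutants, or 1400 ± 525 and 988 ± 43.8 (SD, n = 2). Both mutants lay below both controls, but only by 10 normalized counts from control replicate 1, whereas control replicate 2 lay far above the other 3 libraries. The log2 fold change was -0.45 ± 0.27 (limma adjusted p = 0.696), and it was -0.06 without control replicate 2 and -0.84 without control replicate 1. Of the exonic bases of *Npr1*, 11.7% overlap the antisense gene *Gm16048*, which stood at 6 and 15 normalized counts in the controls and at 5 in each mutant.

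*Npr3* (ENSMUSG00000022206, chromosome 15, 11839896 to 11907287, minus strand) encodes the clearance receptor, which binds the same peptides but has no guanylyl cyclase domain. It had 992 and 670 normalized counts in the controls against 1286 and 1102 in the mutants, or 831 ± 228 and 1194 ± 130 (SD, n = 2). Both mutants were higher than both controls, and control replicate 2 was the lowest library. Its log2 fold change was 0.55 ± 0.21, with a 95% confidence interval from -0.003 to 1.09 and an unadjusted p of 0.0509 (limma adjusted p = 0.681). Without control replicate 2 the fold change was 0.26, and without control replicate 1 it was 0.83. Per kb of exon, the log2 ratio of clearance receptor to cyclase receptor was -1.03 and -2.38 in the controls against -0.55 and -0.86 in the mutants, so that *Npr1* was at the higher level in all 4 libraries and the ratio was higher in both mutants. This ratio was not tested, since an exact permutation test of 2 against 2 libraries cannot go below 0.333.

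*Prkg1* (ENSMUSG00000052920, chromosome 19, 30564489 to 31765033, minus strand) encodes cGMP-dependent protein kinase I, the main effector of cGMP in smooth muscle. It had 711 and 623 normalized counts in the controls against 839 and 639 in the mutants, or 667 ± 62.2 and 739 ± 141 (SD, n = 2). It was the only 1 of the 10 genes whose groups overlapped. The log2 fold change was 0.14 ± 0.17 (limma adjusted p = 0.835), and it turned to -0.06 without Tet3 mutant replicate 1. The interval of the difference, from -0.30 to 0.58, covers a change of either sign.

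The gene is known to start from alternative first exons that give the Iα and Iβ isoforms of the kinase. Values per gene cannot separate them. Since TET3 acts on methylated cytosine, which in mammals lies mostly in CG dinucleotides, the 250 bases before annotated starts were read from RefSeq (GRCm38.p6), which gave 19 windows for 9 of the 10 genes. The study places the loss of the oxidized cytosine that TET3 makes mainly within gene bodies. By PCR it found this loss in highly expressed contractile genes at intragenic regions and not at promoters. Gene bodies as a whole were not read here. Windows that touch no exon in GENCODE M21 are shown for the receptor *Npr1*, for both starts of *Prkg1* and for an internal start of *Pde4b*, because they run from CG-rich to CG-free. Each is written 5′ to 3′ on the strand of the gene with CG dinucleotides in capitals. They are *Npr1* at chr3:90465867-90466116, the upstream start of *Prkg1* at chr19:31765034-31765283, its downstream start at chr19:31664371-31664620, and *Pde4b* at chr4:102587308-102587557.
Npr1: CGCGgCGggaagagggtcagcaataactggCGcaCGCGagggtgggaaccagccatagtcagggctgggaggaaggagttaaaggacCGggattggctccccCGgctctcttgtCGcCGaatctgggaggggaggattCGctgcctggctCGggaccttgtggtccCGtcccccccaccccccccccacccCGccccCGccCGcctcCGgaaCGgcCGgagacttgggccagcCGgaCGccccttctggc
Prkg1 upstream start: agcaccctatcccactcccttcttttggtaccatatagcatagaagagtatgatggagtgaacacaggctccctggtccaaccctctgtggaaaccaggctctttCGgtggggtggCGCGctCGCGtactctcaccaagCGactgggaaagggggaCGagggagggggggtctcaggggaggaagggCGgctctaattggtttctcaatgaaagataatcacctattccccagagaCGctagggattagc
Prkg1 downstream start: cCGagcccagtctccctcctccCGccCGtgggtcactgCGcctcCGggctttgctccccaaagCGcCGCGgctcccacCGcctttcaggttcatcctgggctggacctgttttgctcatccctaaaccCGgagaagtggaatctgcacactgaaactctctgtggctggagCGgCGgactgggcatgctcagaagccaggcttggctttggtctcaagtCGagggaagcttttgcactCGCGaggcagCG
Pde4b: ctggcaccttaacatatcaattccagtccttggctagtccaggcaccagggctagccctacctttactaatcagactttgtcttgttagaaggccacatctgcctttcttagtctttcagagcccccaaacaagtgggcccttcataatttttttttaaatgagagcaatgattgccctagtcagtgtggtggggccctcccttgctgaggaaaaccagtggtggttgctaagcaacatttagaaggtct

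The *Npr1* window held 21 CG dinucleotides, those of *Prkg1* held 9 and 16, and that of *Pde4b* held 0, where the median over all 32851 windows was 6. At least 20 CG dinucleotides stood in 3 of the 19 windows, those of *Pde5a* (22), *Npr1* (21) and one start of *Pde10a* (21), against 17.9% of all windows. Whether the CG content of a start goes with the fold change of its gene was not tested. The whole cAMP response element TGACGTCA, on either strand, was in 0 of the 19 windows, against 1.55% of all windows, and its 6-letter part TGACGT or ACGTCA, on either strand and including the whole element, was in 1 window, of *Pde4b*, against 6.47%. The CArG box bound by serum response factor was in 0 of 19 windows, against 1.47%, and the GC box GGGCGG, on either strand, was in 5, against 32.7%. Both *Prkg1* windows and the *Npr1* window hold the GC box. These matches are letters in a window and were not tested for function.

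*Pde5a* (ENSMUSG00000053965, chromosome 3, 122728947 to 122859374, plus strand) encodes the cGMP-specific PDE that sildenafil inhibits. It had 1817 and 1639 normalized counts in the controls against 2084 and 1985 in the mutants, or 1728 ± 126 and 2034 ± 70.0 (SD, n = 2). Both mutants were higher than both controls. The log2 fold change was 0.24 ± 0.11, at an unadjusted p of 0.0773 (limma adjusted p = 0.681), and it stayed between 0.16 and 0.31 when each library was left out in turn. *Pde5a* exceeded *Prkg1* per kb of exon in every library, by 1.52 ± 0.030 on the log2 scale in controls and 1.62 ± 0.23 in mutants (SD, n = 2), and this ratio overlapped between groups.

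The remaining PDEs that are members and not cAMP-specific hydrolyse both nucleotides. *Pde1a* (ENSMUSG00000059173, chromosome 2, 79834453 to 80129458, minus strand) encodes a PDE stimulated by calcium and calmodulin. It had 246 and 226 normalized counts in the controls against 367 and 352 in the mutants, or 236.0 ± 14.1 and 359.5 ± 10.6 (SD, n = 2). The gap of 106 normalized counts between the groups was several times the difference within either group. *Pde1a* was 1.52-fold higher in mutants, with a log2 fold change of 0.61 ± 0.14, a 95% confidence interval from 0.25 to 0.96 and an unadjusted p of 0.00699 (limma adjusted p = 0.681). It had the smallest p of the 10 genes, rank 103 among all genes tested, and its fold change stayed between 0.55 and 0.67 when each library was left out in turn. The summed smooth muscle markers were also higher in both mutants, and their part in the values of *Pde1a*, *Pde3a* and *Pde5a* was not tested.

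*Pde3a* (ENSMUSG00000041741, chromosome 6, 141249269 to 141507448, plus strand) encodes a PDE that cleaves cAMP and is inhibited by cGMP, and so couples both pathways. It had 1392 and 1285 normalized counts in the controls against 1743 and 1595 in the mutants, or 1338 ± 75.7 and 1669 ± 105 (SD, n = 2). Both mutants were higher than both controls, and each group held together. *Pde3a* was 1.25-fold higher in mutants, with a log2 fold change of 0.32 ± 0.11 and an unadjusted p of 0.0326 (limma adjusted p = 0.681). The fold change stayed between 0.25 and 0.38 when each library was left out in turn. Of its exonic bases, 5.82% overlap the antisense gene *Gm28523*, which stood at 34 normalized counts in each control and at 43 and 42 in the mutants.

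*Pde10a* (ENSMUSG00000023868, chromosome 17, 8525372 to 8986648, plus strand), best known from the striatum, had 64 and 58 normalized counts in the controls against 76 and 80 in the mutants, or 61.00 ± 4.24 and 78.00 ± 2.83 (SD, n = 2). Its log2 fold change was 0.35 ± 0.25 (limma adjusted p = 0.722). *Pde1c* (ENSMUSG00000004347, chromosome 6, 56069804 to 56652487, minus strand), which encodes another calcium- and calmodulin-stimulated PDE, had only 14 and 16 normalized counts in the controls against 23 and 18 in the mutants. The groups were 2 normalized counts apart, while counting error alone at a value of 20 has an SD of 4.24 to 4.67 in these libraries. Its log2 fold change of 0.42 ± 0.41 had a limma adjusted p of 0.782 and was 0.25 without Tet3 mutant replicate 1, so that no difference was detectable at this depth.

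The cAMP-specific members were both lower in mutants. *Pde4d* (ENSMUSG00000021699, chromosome 13, 108449948 to 109953461, plus strand) encodes a PDE that limits β2-adrenoceptor signalling in airway smooth muscle. It had 756 and 1143 normalized counts in the controls against 629 and 605 in the mutants, or 949.5 ± 274 and 617 ± 17.0 (SD, n = 2). The mutants lay close together below both controls, and the controls lay 1.51-fold apart. The log2 fold change was -0.59 ± 0.21, with a 95% confidence interval from -1.14 to -0.04 and an unadjusted p of 0.0389 (limma adjusted p = 0.681). Without control replicate 2 it was -0.29, and without control replicate 1 it was -0.89.

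*Pde4b* (ENSMUSG00000028525, chromosome 4, 102087543 to 102607259, plus strand) encodes a related PDE known for its part in inflammatory cells. It had 1049 and 766 normalized counts in the controls against 759 and 725 in the mutants, or 907.5 ± 200 and 742 ± 24.0 (SD, n = 2). Control replicate 2 lay only 7 normalized counts above the higher mutant, and here it was control replicate 1 that stood high. The log2 fold change of -0.27 ± 0.18 had a limma adjusted p of 0.710, and it was -0.05 without control replicate 1 and -0.50 without control replicate 2. The relation of *Pde4d* to *Pde4b*, as a log2 ratio per kb of exon, was -0.66 and 0.39 in the controls against -0.46 and -0.45 in the mutants, and overlapped between groups.

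**Figure D2:**
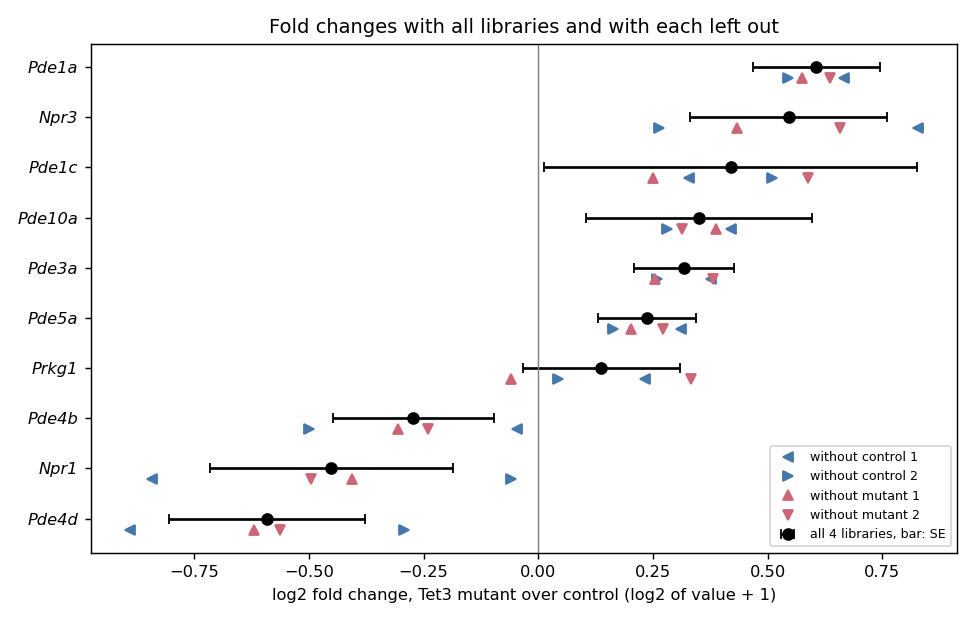
Log2 fold changes of the 10 genes, Tet3 mutant over control. Black circles are values from all 4 libraries with their standard errors, and triangles are values with 1 library left out. The values of *Pde1a*, *Pde3a*, *Pde5a* and *Pde10a* spread least. Without 1 of the controls, *Npr1* and *Pde4b* come close to 0, at -0.06 and -0.05, while *Pde4d* and *Npr3* shrink to -0.29 and 0.26. *Prkg1* crosses 0 without Tet3 mutant replicate 1.

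The 10 genes were set among all PDE genes in the table by their level per kb of exon. *Pde5a* had the highest mean level, at 185 and 167 normalized counts per kb in the controls against 212 and 202 in the mutants. *Pde9a*, another cGMP-specific PDE, followed with 172 and 109 in the controls against 189 and 138 in the mutants, which overlapped the levels of *Pde5a*, and the cAMP-specific *Pde8a* with 156 and 134 in the controls against 127 and 149 in the mutants overlapped those of *Pde9a*. *Pde3a* came next with 109 and 101 in the controls against 137 and 125 in the mutants. A middle group from *Pde4b* (mean 78.1) to *Pde3b* (mean 43.1) held *Pde4d* at 65.2 and *Pde1a* at 49.5, and its neighbours did not differ beyond the spread of the libraries. *Pde10a* at 5.41 and *Pde1c* at 0.885, whose exon length comes from a gene model with other ends than the counted one, lay well below, with *Pde4c*, *Pde11a* and *Pde2a*. The value of *Pde2a* is uncertain because most of its exonic bases are shared with *Gm45837* on the same strand, and reads over several genes were not counted. For orientation, the mean level of *Npr1* was 250 normalized counts per kb, that of *Npr3* 108 and that of *Prkg1* 64.7, and the median of all genes tested was 53.9.

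**Figure D3:**
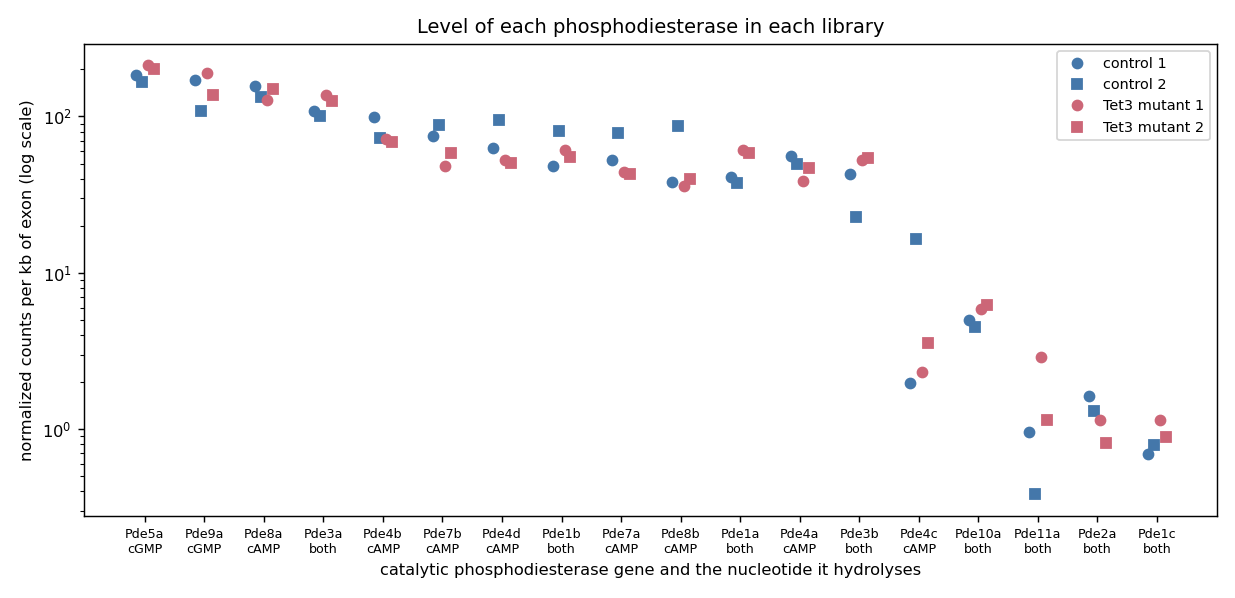
Level of each of the 18 catalytic PDE genes in each library, in normalized counts per kb of exon on a log axis, ordered by the mean level, with the nucleotide hydrolysed under each name. *Pde5a* stands first with 167 to 212, and *Pde4c*, *Pde10a*, *Pde11a*, *Pde2a* and *Pde1c* form a low group in which control replicate 2 is high for *Pde4c*.

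Grouping of the 18 catalytic PDE genes by the nucleotide they hydrolyse, a grouping made after their values were seen, was used to compare the summed level with its composition. The sum was 1148 and 1145 normalized counts per kb in the controls against 1144 and 1102 in the mutants. Genes specific for cAMP (the Pde4, Pde7 and Pde8 families) summed to 542 and 620 in the controls against 420 and 459 in the mutants, which was 47.2% and 54.2% of all PDE in the controls against 36.7% and 41.7% in the mutants. Genes for both nucleotides (the Pde1, Pde2, Pde3, Pde10 and Pde11 families) summed to 249 in each control and to 323 and 303 in mutants, or 21.7% in each control against 28.2% and 27.5% in the mutants. The cGMP-specific genes *Pde5a* and *Pde9a* summed to 357 and 275 in the controls against 401 and 340 in the mutants and overlapped. Since the grouping followed the values, it was not tested. At equal library totals both separations remained, with 539 and 603 against 424 and 470 for cAMP-specific genes and 248 and 242 against 326 and 310 for genes of both nucleotides. The alveolar type 2 markers were, like the cAMP-specific PDEs, lower in both mutants and highest in control replicate 2, and their part in this difference was not tested.

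All 8 cAMP-specific genes had a log2 fold change below 0, with a median of -0.57, and 5 of them had both mutants below both controls, where 19.5% of all genes tested did. Leaving out control replicate 2 moved this median to -0.28 and left 7 of 8 below 0. An unadjusted limma p below 0.05 was found for 3 of the 8, *Pde4d* and 2 others, where 2.85% of all genes tested passed as lower. The grouping was made after the values were seen, so this share is a description only. *Pde7b* had 940 and 1096 normalized counts in the controls against 600 and 727 in the mutants, a log2 fold change of -0.62 ± 0.15 (limma adjusted p = 0.681). *Pde7a* had 406 and 605 in the controls against 342 and 332 in the mutants, a log2 fold change of -0.56 ± 0.22 (limma adjusted p = 0.681), which was -0.27 without control replicate 2 and -0.84 without control replicate 1. Of the 6 tested genes for both nucleotides, 5 had a fold change above 0, and all 6 did without control replicate 2. *Pde1b*, which did not, had 260 and 436 normalized counts in the controls against 328 and 299 in the mutants, and *Pde3b*, the paralogue of *Pde3a*, had 388 and 206 in the controls against 481 and 496 in the mutants, with a log2 fold change of 0.79 that was 0.33 without control replicate 2 and 1.24 without control replicate 1.

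**Figure D4:**
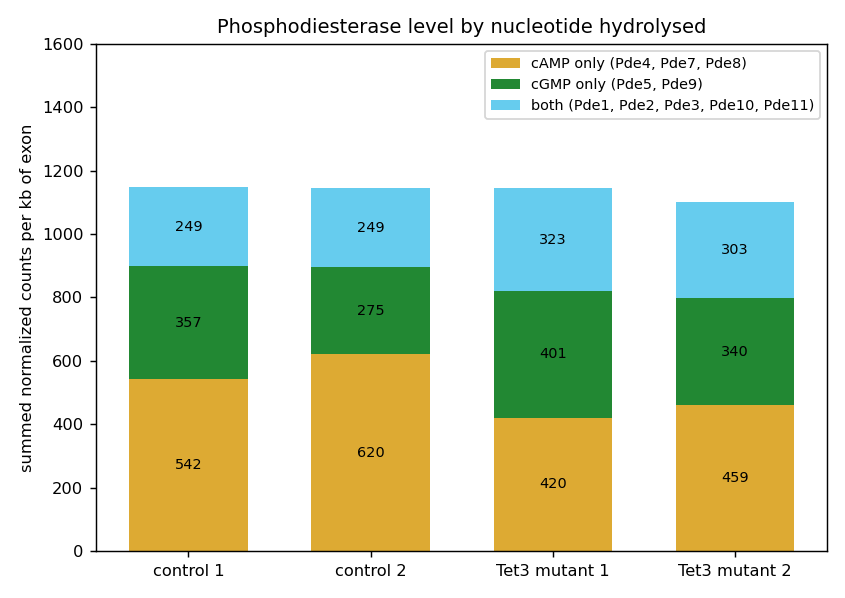
Summed level of the catalytic PDE genes in each library in normalized counts per kb of exon, stacked by the nucleotide hydrolysed. The whole column is 1102 to 1148 in all 4 libraries, while the cAMP-only segment is 542 and 620 in the controls against 420 and 459 in the mutants and the segment for both nucleotides is 249 in each control and 323 and 303 in mutants.

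The other genes of the pathway were read by role from 8 lists holding 110 genes, of which 97 were in the table and 81 were tested. The lists, like the members, were chosen with earlier results of these data known. Of these 81 genes, 0 were called by limma, 8 had an unadjusted p below 0.05 (9.88%, against 6.68% of all genes tested), 2 of them higher in mutants and 6 lower, and 38 had groups that did not overlap (46.9%, against 39.0%). Their median log2 fold change was -0.07. Each of the 8 genes with an unadjusted p below 0.05 had a limma adjusted p of 0.681, and so did *Adcy3* and *Prkar2b* below.

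At the head of the pathway, ligands were scarce. *Nppa*, which encodes atrial natriuretic peptide, was listed at 0 in both controls and at 9 and 27 normalized counts in mutants, a mean below the minimum for testing. Of the exonic bases of *Nppa*, 61.5% overlap *Gm13054* on the other strand. *Nppc*, which encodes C-type natriuretic peptide, had 3 and 5 in the controls against 1 and 2 in the mutants. Furin, a protease that processes propeptides, was encoded at 1342 and 1534 normalized counts in the controls against 1242 and 1353 in the mutants, with a log2 fold change of -0.15 (limma adjusted p = 0.744), which was -0.05 without control replicate 2. Among cyclases, *Npr2*, the receptor for C-type natriuretic peptide, had 1114 and 1142 in the controls against 851 and 940 in the mutants, a log2 fold change of -0.33 ± 0.11 and an unadjusted p of 0.0267. *Gucy1b1*, the β1 subunit of nitric oxide-sensitive guanylyl cyclase, had 591 and 646 in the controls against 909 and 735 in the mutants, a log2 fold change of 0.40 ± 0.15 and an unadjusted p of 0.0396, but 0.25 without Tet3 mutant replicate 1. Its partner *Gucy1a1* had 1277 and 1373 in the controls against 1707 and 1394 in the mutants, with a log2 fold change of 0.22 (limma adjusted p = 0.701), which was 0.07 without Tet3 mutant replicate 1. Both mutants lay below both controls for the receptors *Npr1* and *Npr2*, as for 19.5% of all genes tested. They lay above both controls for the subunits *Gucy1a1* and *Gucy1b1*, as for 19.6%. The groups were only 10 normalized counts apart for *Npr1* and 21 for *Gucy1a1*, and the fold change of *Npr1* was -0.06 without control replicate 2. A difference between these kinds of cyclase was not tested.

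Of 14 adenylyl cyclase and G protein genes tested, 0 had an unadjusted p below 0.05, and their median log2 fold change was 0.09. *Adcy3*, an adenylyl cyclase, had the smallest p in this list, with 679 and 580 normalized counts in the controls against 789 and 771 in the mutants and a log2 fold change of 0.31, which was 0.20 without control replicate 2, but 22.1% of its exonic bases overlap *Cenpo* on the other strand. *Gnas*, the stimulatory G protein, had 1602 and 1758 in the controls against 1702 and 1503 in the mutants. Of 13 other effector genes, 0 had an unadjusted p below 0.05. *Prkar2b*, a regulatory subunit of protein kinase A, had the smallest p, with 232 and 140 in the controls against 243 and 308 in the mutants and a log2 fold change of 0.60, which was 0.24 without control replicate 2 and 0.96 without control replicate 1. The catalytic subunit gene *Prkacb* had 1227 and 1218 in the controls against 1269 and 1289 in the mutants.

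Of the 12 genes for kinase inhibitors, anchoring proteins and nucleotide exporters, 1 had an unadjusted p below 0.05. *Akap7*, which anchors protein kinase A, had 558 and 655 normalized counts in the controls against 435 and 424 in the mutants, with a log2 fold change of -0.49 ± 0.13. Of the 9 genes encoding kinase substrates in smooth muscle, 1 had an unadjusted p below 0.05. *Mrvi1*, also called IRAG, is the substrate through which cGMP-dependent protein kinase I inhibits calcium release from the sarcoplasmic reticulum. *Mrvi1* had 241 and 243 normalized counts in the controls against 422 and 391 in the mutants, with a log2 fold change of 0.74 ± 0.13 and an unadjusted p of 0.0024, and its fold change stayed between 0.69 and 0.80 when each library was left out in turn. The other substrate genes included *Ppp1r12a*, the myosin phosphatase targeting subunit, with 1972 and 2081 in the controls against 2247 and 1957 in the mutants, and *Vasp* with 819 and 967 in the controls against 854 and 847 in the mutants, both of which overlapped between groups.

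The list of CREB factors and cAMP-responsive genes had a median of -0.29, with 13 of its 15 genes below 0. Both mutants lay below both controls for 7 of the 15, where 19.5% of all genes tested did so. The median was -0.18 without control replicate 2, -0.17 without Tet3 mutant replicate 2 and -0.48 without control replicate 1. At equal library totals 12 of 15 were below 0. The clock gene *Per1* had 1429 and 1336 normalized counts in the controls against 596 and 761 in the mutants, a log2 fold change of -1.04 ± 0.15 and an unadjusted p of 0.000944. *Sik1*, a kinase induced by cAMP, had 1353 and 1260 in the controls against 691 and 874 in the mutants, a log2 fold change of -0.75 ± 0.15 and an unadjusted p of 0.00375. The factor itself, *Creb1*, had 1277 and 1086 in the controls against 1148 and 1111 in the mutants and overlapped. The part of cAMP signalling in the values of this list was not tested.

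**Figure D5:**
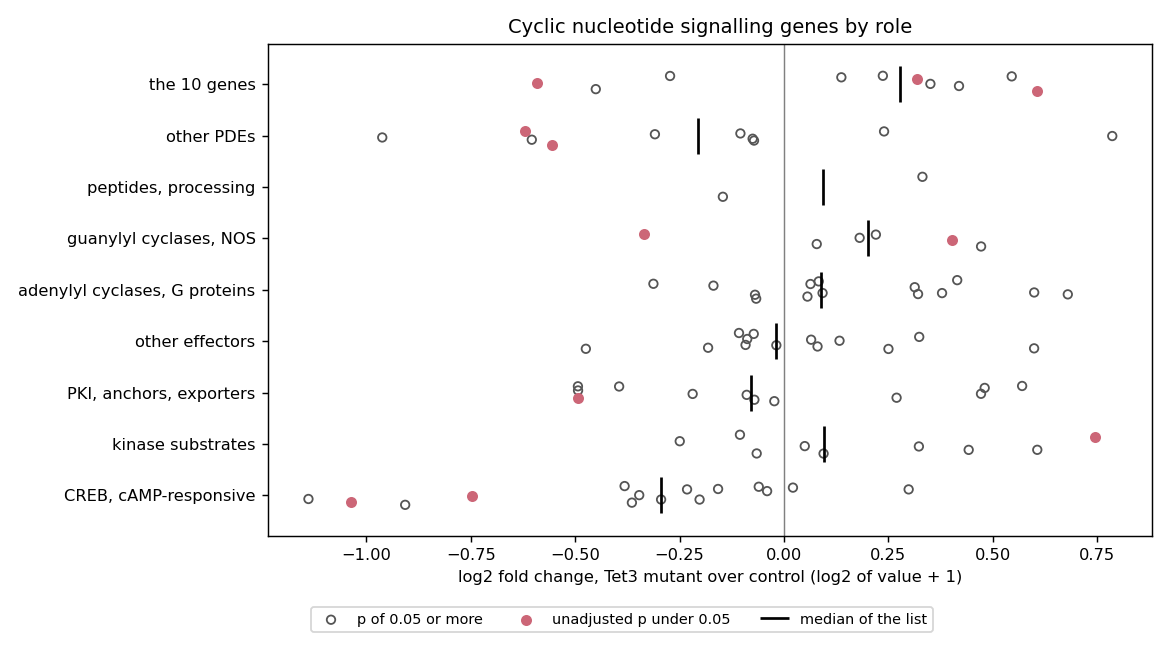
Log2 fold changes, Tet3 mutant over control, of the 10 genes and of the 8 pathway lists. Each point is a tested gene, red points have an unadjusted p under 0.05 and the bar is the median of the list, which runs from -0.29 for CREB factors and cAMP-responsive genes to 0.28 for the 10 genes.

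Outside their levels, the 10 genes were mostly long. *Pde4d* spans 1504 kb and *Prkg1* 1201 kb, *Pde4b* and *Pde10a* span 519.7 and 461.3 kb, and *Npr1* alone, at 15.28 kb, is shorter than the median of 20.1 kb over all genes tested. The longest gene, *Pde4d*, the shortest, *Npr1*, and *Pde4b* had a log2 fold change below 0, and the other 7 had 1 above 0. A relation of gene length to fold change was not tested. In GENCODE M21, exons of *Pde1a*, *Pde4b*, *Pde4d*, *Pde10a* and *Prkg1* overlap those of no other gene. For these 5, no annotated exon on the other strand could alter the count if strand was not used in counting. For the other members such an overlap would then take reads away, since reads over several genes were not counted. Transcripts outside the annotation were not checked.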

How the data were processed

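RNA from sorted lung smooth muscle cells was measured in 2 Tet3 mutant and 2 control libraries, grouped by the genotype in their labels. By the study's methods, ribosomal RNA was depleted, libraries were prepared with a stranded total RNA kit and sequenced as single-end reads. Per the labels' processing notes and those methods, the authors trimmed reads with Trimmomatic 0.36, aligned them with STAR 2.6.0c to mm10 (GRCm38) and counted reads over exons with featureCounts of Subread 1.6.0, leaving out reads that mapped to several places or genes. Whether strand was used in counting is not given in the sources used here. The unit of the deposited table is a score: the authors scaled counts between samples, with DESeq2 as the tool their methods name, and rounded the result, so that raw counts were not analysed here and no count-based test was run. Columns with the authors' own annotation were used only for names and coordinates.

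The deposited totals were 6805272 to 7164573 per library. The scaling factor of each library, fitted by likelihood to the histogram of its low values, was 0.901 to 1.09, which puts the reads assigned to genes at 6.32 M to 7.56 M. Reads carried no molecular identifier and so are not independent molecules, and statements on counting error cover that error only.

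Genes with a mean of at least 10 were compared on log2(value + 1) in R 4.3.3 by limma 3.58.1, using lmFit and eBayes with a mean-variance trend, with group as the only term, Benjamini-Hochberg adjustment over all 16659 genes and a threshold of 0.05. This scale understates the changes of low genes. Fits were tested on simulated data. Levels between genes were compared per kb of the union of exons in GENCODE M21 (GRCm38), where 9 of the 10 members have the same coordinates as in the table. Promoter windows came from RefSeq (GRCm38.p6).

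The members and lists were chosen with earlier results of these data known. All 10 members were named, all PDEs by level, and of the other pathway genes those with an unadjusted p below 0.05 or, in lists without one, the gene with the smallest p. Other genes, the grouping by nucleotide and the KEGG lists were chosen after values were seen. The marker lists were smooth muscle, pericyte, fibroblast, endothelium, cardiomyocyte, alveolar type 1 and type 2, macrophage, T cell, neutrophil, ciliated and Y chromosome genes. Alternatives were other pseudocounts (0.5 and 8), filters (means of 1 and 50), TMM factors, equal library totals, no trend, the replicate number as a block, and each library left out.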

Additional observations from a re-analysis of the deposited data

How the results depend on the processing

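In none of the 12 alternative settings was a member called, and the smallest limma adjusted p of a member was 0.205, without control replicate 1. Direction was kept in every setting that tested them by 9 of the 10 members and by all 11 pathway genes chosen by rule. The groups of those 9 members do not overlap, so leaving out 1 library could not reverse their sign. The filters, the trend and the block do not alter a fold change, so for these members the kept direction only restates the gap between groups. *Prkg1* ranged from -0.0586 without Tet3 mutant replicate 1 to 0.334 without Tet3 mutant replicate 2. Of all genes, 1 (*Hal*, named after its values were seen) was called without the mean-variance trend, and 0 in the other settings. Members with an unadjusted p below 0.05, 3 with all libraries, numbered 5 at equal library totals, 1 without the trend and 0 to 6 with 1 library left out. Their median log2 fold change ranged from 0.21 to 0.32 with 1 library left out. Pathway genes with an unadjusted p below 0.05, 8 with all libraries, numbered 14 under the replicate block and 5 to 23 with 1 library left out. The cause of these shifts was not tested. The replicate numbers were not shown to pair the samples, since deviations of same-numbered libraries had a Pearson correlation of 0.13 over 2 pairs. With the replicate block, 0 genes were called and 1637 had an unadjusted p below 0.05, against 1112 without it. Equal library totals moved the share of higher genes among those with an unadjusted p below 0.05 from 57.4% to 69.2%. A mean of at least 50 removed *Pde1c*. Count-based alternatives were not run, because whole reads were not recovered. With 1 library left out, the lone library of its group is assumed to vary like the other group. Depth limits *Pde1c* and *Nppa*.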

Other observations

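Broader pathway lists were read as a description, chosen after values were seen. Of 144 tested genes in the KEGG cGMP-PKG signaling pathway, as annotated in the table, 23 had an unadjusted p below 0.05 (16.0%, against 6.68% of all genes tested), 15 of them higher in mutants and 8 lower, and 60 had groups that did not overlap (41.7%, against 39.0% of all genes tested). The list includes *Pde5a*, *Pde3a*, *Prkg1* and *Npr1*, and its median log2 fold change was 0.04. Of 151 tested genes in the KEGG cAMP signaling pathway, 16 had an unadjusted p below 0.05 (10.6%), 11 higher and 5 lower, and 52 had groups that did not overlap (34.4%), both against the same shares of all genes, with a median of 0.03. None of these genes was called by limma.

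The remaining marker lists are given as sums of normalized counts. Cardiomyocyte markers summed to 977 and 1504 in the controls against 971 and 915 in the mutants. Much of this sum was *Myh7*, with 471 and 1004 in the controls against 215 and 459 in the mutants. Of the 8 cardiomyocyte markers, 6 had a fold change above 0 and 2 below, with a median of 0.43, which was 0.08 without control replicate 2. T cell markers summed to 790 and 228 in the controls against 846 and 877 in the mutants, and neutrophil markers to 1059 and 816 in the controls against 1939 and 1304 in the mutants. Ciliated cell markers summed to 2609 and 2935 in the controls against 5169 and 3547 in the mutants, pericyte markers to 4578 and 4844 in the controls against 6532 and 5633 in the mutants, and alveolar type 1 markers to 3237 and 4338 in the controls against 2909 and 3523 in the mutants. Fibroblast markers summed to 21395 and 17860 in the controls against 23040 and 20173 in the mutants, and endothelial markers to 15283 and 15144 in the controls against 16231 and 15759 in the mutants. Their part in the values of the 10 genes was not tested.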
